A study of Mus musculus with 3 samples.

Results

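The circadian clock genes described here are 10 genes chosen by name, of the 32285 genes in the count tables: Arntl, Clock, Per1, Per2, Per3, Nr1d1, Nr1d2, Dbp, Tef and Nfil3. Transcripts of single back skin cells were counted in 3 libraries of wildtype, untreated mice aged P38 (male, catagen follicles), 6 months (female, mostly anagen follicles) and 12 months (male, telogen and anagen follicles mixed), with 1 library per age. The study describes cells of the Krt14-H2B-GFP line, in which the Krt14 promoter drives a nuclear fluorescent protein in basal epithelial cells, collected by flow cytometry, whereas the submitters' labels mention no sort. The study took the P38 data from earlier published work. It states that this sample held few dermal cells because cells with the fluorescent protein were sorted. By their markers, 0 fibroblasts and 0 T cells were found at P38, against 101 and 53 at 6 months and 233 and 40 at 12 months. Age, sex, hair cycle stage, library, cell sorting and time of day cannot be told apart in this design. The hour at which the mice were killed is not given in the sources used here, so no phase in hours can be stated.

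The clock is a feedback loop that runs in nearly every cell of the body. ARNTL (also called BMAL1) and CLOCK pair to switch on the Per and Cry genes, whose proteins then block that pair, while NR1D1 and NR1D2 (the REV-ERB repressors) hold Arntl down and the ROR activators raise it. DBP, TEF and HLF are activators that carry the rhythm to output genes, and NFIL3 represses through the same sites. Genes of the Dbp and Nr1d1 group and Arntl therefore peak at opposite times in most mouse tissues. In skin the clock is known to run in the epidermis and in the follicle, and it can also respond to stress and to glucocorticoids, for which Per1 is a known target.

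The cell filter asked for over 200 but below 5000 detected genes, with mitochondrial UMIs under 15%, and left 2109 cells at P38, 3502 at 6 months and 3240 at 12 months with 34646663, 24698719 and 38910431 UMIs. A UMI is a tag that counts 1 captured transcript, and CPM here is the UMI count of a gene divided by the UMI total of its class and library and multiplied by 1e6. The median depth per kept cell was 16170 UMIs at P38, 1019 at 6 months and 11438.5 at 12 months. Each cell was gated on marker genes, and 8 epithelial classes held at least 20 cells in every library: upper follicle (UpHF), hair follicle stem cells (HF-SC), inner Niche cells, hair germ (HG), sebaceous gland (SG), Proliferating cells, and interfollicular epidermis (IFE) suprabasal and IFE basal cells. All these names mean cells that are like the class in their markers, and 1 to 7 of the 8 or fewer markers of the class stood among its 10 leading genes in every library. Class sizes in the order P38, 6 months and 12 months were 291, 109 and 496 cells for IFE basal, 324, 111 and 141 for HF-SC, 109, 30 and 33 for Niche and 55, 35 and 31 for HG. The SG cells of 6 and 12 months were shallow, with median depths of 651.5 and 709.5 UMIs, against 20863 at P38. The 6-month and 12-month libraries shared 81 cell barcodes, of which 49 were gated in both and 47 of these fell in the same class. SG was the class with the most shared barcodes. They made up 40 of the 70 SG cells at 12 months and 38 of the 102 at 6 months, but they held few UMIs. Without them SG Arntl was 8.57 CPM at 12 months and 23.2 CPM at 6 months, SG Dbp 10.7 and 7.75 CPM and SG Nr1d1 49.3 and 71.7 CPM. None of the counts of moved or called members changed when shared barcodes were left out. Krt14, a keratin gene of basal epithelial cells that T cells should lack, stood at 245 CPM in 6-month T cells, against 11827 CPM in 6-month IFE basal cells, as a guide to the level that free RNA can reach. Fibroblasts held less, at 91.1 CPM at 6 months and 198 CPM at 12 months. Higher levels stood in 12-month dermal papilla cells, at 554 CPM, and in muscle and pericyte cells, at 8591 CPM at 6 months and 1933 CPM at 12 months. The cause of these levels was not tested.

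The members differed widely in level. Nfil3 was the most abundant over all kept cells at P38 and 6 months, at 116 CPM in both, and stood at 57.1 CPM at 12 months, beside Nr1d1 at 57.4 CPM. Clock was present at 47.0, 36.1 and 40.7 CPM and Arntl at 44.0, 28.5 and 26.0 CPM in the same order. Per2 was close to undetected, with 20, 36 and 51 UMIs in all, and no epithelial class held more than 6 of them in any library. Levels of genes are per UMI total and not per length, since the 3ʹ chemistry tags each transcript once.

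**Figure D1:**
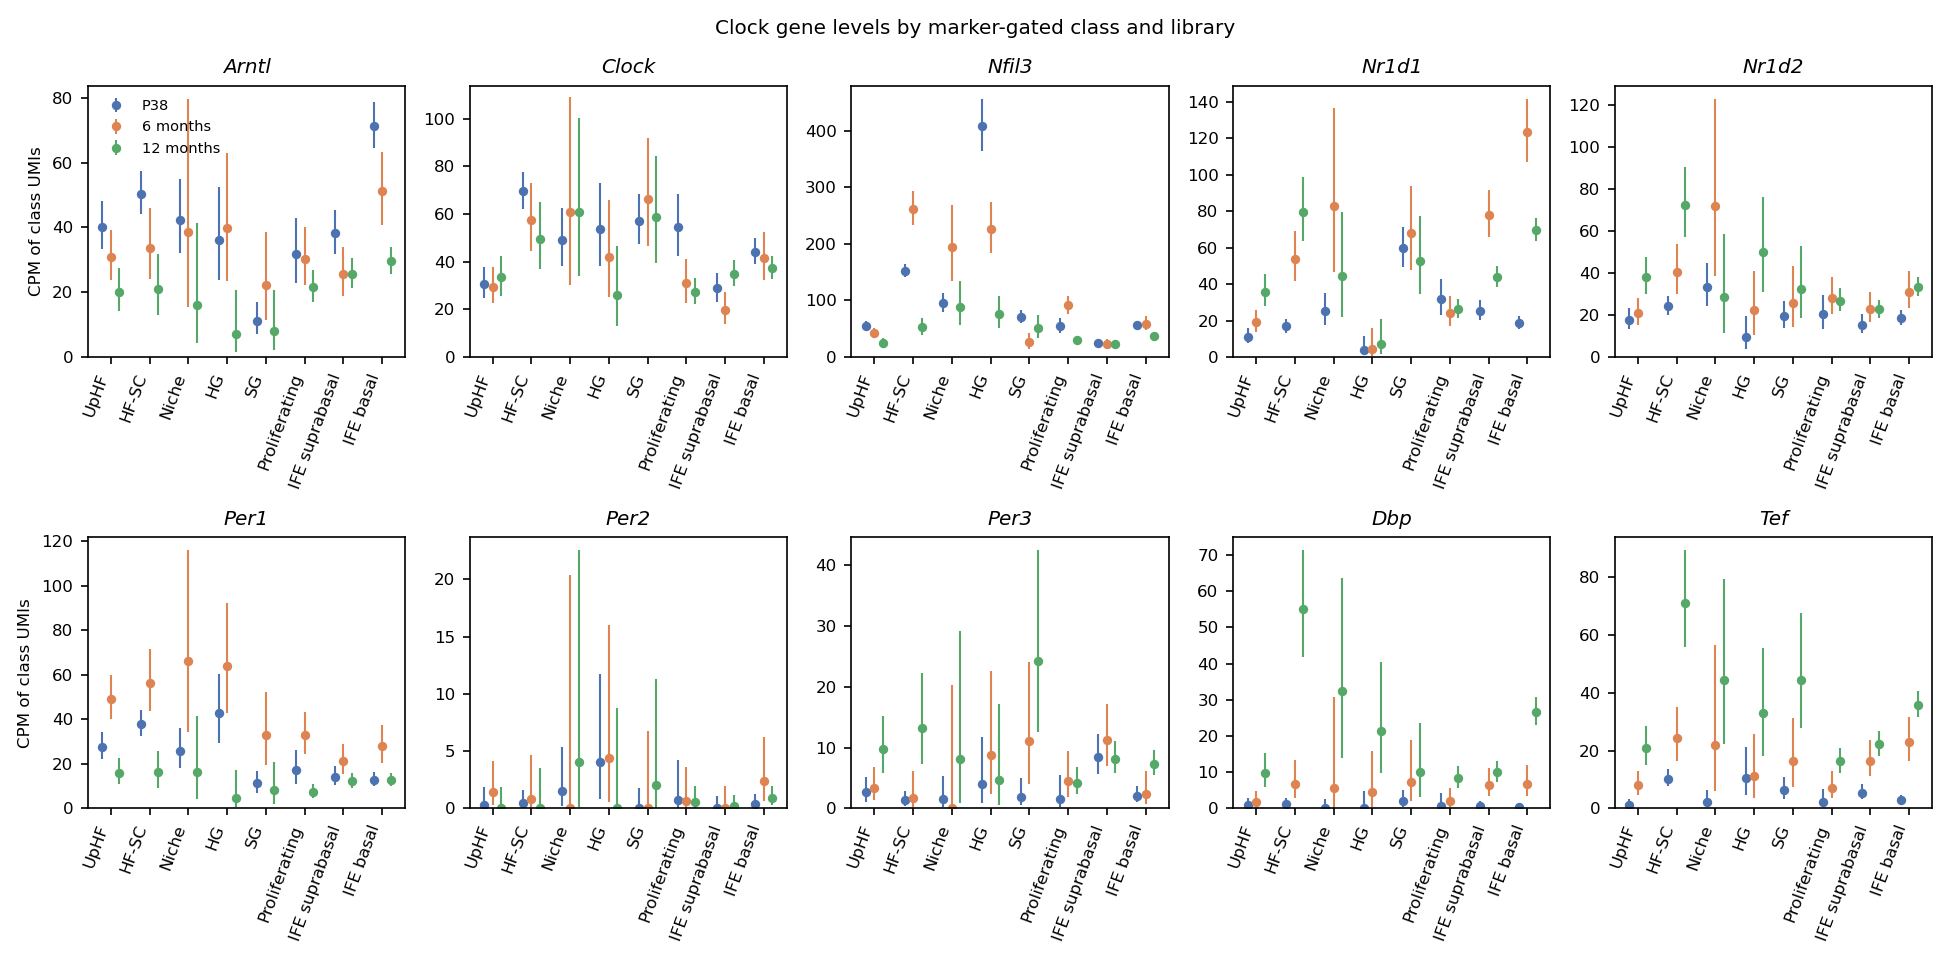
Level of each of the 10 clock genes (CPM of the UMIs of a class, vertical axis, scaled per gene) in 8 marker-gated classes (horizontal axis) of the P38, 6-month and 12-month libraries; points are 1 library each and bars are exact Poisson 95% intervals, which cover counting error only. Dbp and Tef stand highest at 12 months in all 8 classes, Nfil3 reaches 408 CPM in P38 hair germ cells, and Nr1d1 stays at or under 7.11 CPM in hair germ cells of every age.

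Dbp, which encodes an activator of clock output genes, separated the P38 and 12-month libraries most sharply. In IFE basal cells it stood at 0.529 CPM (3 UMIs) at P38, 6.69 CPM (11 UMIs) at 6 months and 26.7 CPM (182 UMIs) at 12 months. In HF-SCs the levels were 1.32 CPM (6 UMIs), 6.76 CPM (8 UMIs) and 55.1 CPM (58 UMIs) in the same order. The 2 classes thus gave the same order of libraries with no overlap of the P38 and 12-month intervals. The 12-month over P38 log2 ratio was 5.66 (95% interval 4.09 to 7.95) in IFE basal cells and 5.38 (4.17 to 6.89) in HF-SCs, and the smallest was 2.37 (0.16 to 4.71) in SG cells. Niche and HG cells held no Dbp UMI at P38. Their 12-month levels of 32.3 CPM (8 UMIs) and 21.3 CPM (9 UMIs) were 14.5-fold and 5.31-fold above a floor of 3 UMIs in the P38 library. These folds leave out the counting error of the 12-month UMIs. With these 2 classes set against that floor, the median log2 ratio over the 8 classes was 3.66. All 8 Dbp intervals lay above 0 for 12 months over P38. For 6 months over P38 only 3 of the 8 did, and for 12 over 6 months 4.

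Tef, which encodes a second activator of the same family, followed the same order. It stood at 2.82 CPM (16 UMIs) at P38, 23.1 CPM (38 UMIs) at 6 months and 36.0 CPM (245 UMIs) at 12 months in IFE basal cells. In HF-SCs it stood at 10.4, 24.5 and 71.3 CPM, and in UpHF cells at 1.32, 8.07 and 21.0 CPM. The 12-month levels were higher than the P38 levels in all 8 classes, each with an interval above 0, with a median log2 ratio of 2.78 and a range of 1.59 to 4.16. Over 6 months, the 12-month level of Tef was also higher in 8 of 8 classes, and 6 intervals lay above 0.

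Arntl, whose product drives the positive arm, moved the other way between P38 and 12 months. It reached 71.4 CPM (405 UMIs) in P38 IFE basal cells, 51.1 CPM (84 UMIs) at 6 months and 29.7 CPM (202 UMIs) at 12 months. In HF-SCs the levels were 50.5, 33.8 and 20.9 CPM. The 12-month levels were lower than the P38 levels in all 8 classes, with a median log2 ratio of -1.11, and 5 of the 8 intervals lay below 0; those of Niche, Proliferating and SG cells, with 4, 78 and 4 UMIs at 12 months, did not. Between 12 and 6 months Arntl was lower in 7 of 8 classes, with 3 intervals below 0, while IFE suprabasal cells held 25.8 CPM at 12 months, against 25.7 CPM at 6 months. At 6 months Arntl was lower than at P38 in 6 of 8 classes, with 3 intervals below 0. In SG and HG cells Arntl was higher at 6 months, at 22.1 against 11.2 CPM and 39.8 against 36.2 CPM. Clock, its partner, had 4 classes higher and 4 lower at 12 months than at P38, with a median log2 ratio of -0.09 and 3 intervals below 0.

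Per1, a Period gene whose product represses the ARNTL and CLOCK pair, was highest at 6 months. In UpHF cells it stood at 27.7 CPM (84 UMIs) at P38, 49.4 CPM (104 UMIs) at 6 months and 15.9 CPM (31 UMIs) at 12 months, and in HF-SCs at 38.1, 56.6 and 16.2 CPM. The 6-month level was above the P38 level in 8 of 8 classes (6 intervals above 0) and the 12-month level was below the 6-month level in 8 of 8 classes, each with an interval below 0. The 12-month level was lower than that of P38 in 8 of 8 classes by sign, but it was 12.8 against 12.9 CPM in IFE basal cells and 4 intervals included 0. The order of libraries for Per1 therefore differed from that of Dbp and Tef. Per3, a further Period gene, had at most 50 UMIs in any class and was higher at 12 months than at P38 in 5 of the 6 classes with more than 3 UMIs in either library, with 13.3 against 1.32 CPM in HF-SCs and 7.34 against 2.11 CPM in IFE basal cells.

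Nr1d1 and Nr1d2 encode the REV-ERB repressors of Arntl, and they moved less uniformly. In IFE basal cells Nr1d1 stood at 18.5 CPM (105 UMIs) at P38, 124 CPM (203 UMIs) at 6 months and 69.8 CPM (475 UMIs) at 12 months. In HF-SCs it stood at 16.8, 54.0 and 79.8 CPM, so the 12-month library was the highest there and the 6-month library in IFE. The 12-month over 6-month log2 ratio was 0.56 (0.08 to 1.06) in HF-SCs and 0.92 (0.34 to 1.52) in UpHF cells, against -0.82 (-1.06 to -0.58) in IFE basal and -0.83 (-1.14 to -0.52) in IFE suprabasal cells; the intervals cover counting error only and the difference was not tested over animals. Nr1d1 varied little with library in SG cells, at 59.6, 68.1 and 52.7 CPM, and in Proliferating cells, at 31.7, 24.3 and 26.2 CPM. HG cells held only 3, 2 and 3 Nr1d1 UMIs. Nr1d2 was higher at 12 months than at P38 in 7 of 8 classes with 5 intervals above 0, and stood at 24.03, 40.5 and 72.2 CPM in HF-SCs of P38, 6 months and 12 months.

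Nfil3, the repressor that competes with DBP and TEF, was lower at 12 months than at P38 in 8 of 8 classes, with a median log2 ratio of -0.73 and 5 intervals below 0. In HF-SCs it stood at 152 CPM (690 UMIs) at P38, 262 CPM (310 UMIs) at 6 months and 52.3 CPM (55 UMIs) at 12 months. In HG cells it stood at 408 CPM (305 UMIs), 226 CPM (102 UMIs) and 75.9 CPM (32 UMIs). The 12-month over P38 log2 ratio was -2.43 (-3.00 to -1.90) in HG and -1.54 (-1.96 to -1.14) in HF-SCs, but -0.16 (-0.58 to 0.28) in IFE suprabasal cells.

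**Figure D2:**
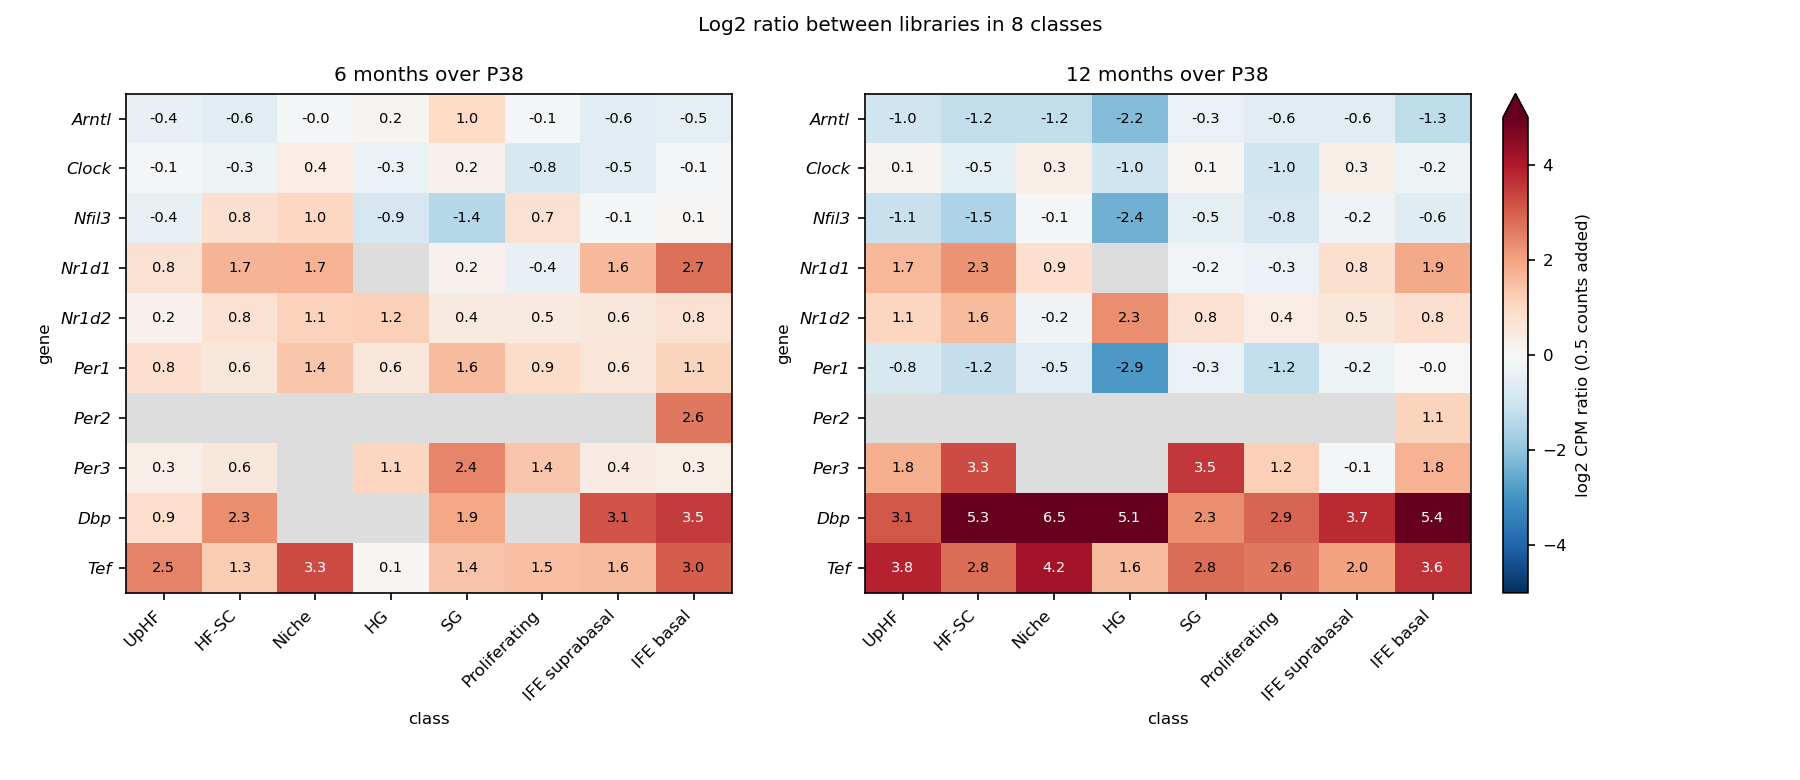
Log2 ratio of the CPM of 10 clock genes (rows) in 8 classes (columns), 6 months over P38 on the left and 12 months over P38 on the right, with 0.5 counts added to each sum; grey cells had 3 or fewer UMIs in both libraries and the colour scale ends at 5. Both panels share the P38 library. At 12 months Dbp and Tef are higher and Arntl, Per1 and Nfil3 lower in every class, whereas Nr1d1 is near 0 in gland and Proliferating cells.

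By sign alone, 5 of the 10 members moved the same way in all 8 classes between 12 months and P38, 2 of them higher and 3 lower; with cells under 10% mitochondrial UMIs the count was 3. Among 10941 genes tested, 10.5% were higher and 6.62% lower in all 8 classes in that comparison. Between 6 months and P38 the members higher in every class, with 0.5 counts added, were Per1, Per3, Nr1d2, Dbp and Tef, against 7.22% of all genes, and none was lower in every class, against 2.59%; Dbp had more than 3 UMIs in either library in only 5 of those classes and Per3 in 7, and Niche cells held 0 Per3 UMIs at 6 months and 2 at P38, so the sign of Per3 there came from the 0.5 counts alone. Between 12 and 6 months Dbp and Tef were higher (2.88% of all genes) and Per1 and, with 0.5 counts added, Arntl lower (5.35%) in every class. These 3 comparisons share libraries, with 1 library per age and no replicate check. The median log2 ratio of all tested genes was 0.23 for 6 months over P38 and 0.18 for 12 months over P38, and the same median over the members was 0.77 and 0.60.

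The share of the variation of log2(CPM + 5) that lay between libraries, over the 8 classes, was 75.2% for Dbp, 72.1% for Tef and 61.8% for Per1. It was 40.1% for Arntl, 35.3% for Nr1d2 and 35.2% for Per3, and only 15.9% for Nr1d1, 13.8% for Nfil3 and 5.0% for Clock. The median over all tested genes was 10.6%, with 57.3% between classes. Dbp, Tef and Per1 were thus ordered mainly by library, and Nr1d1, Nfil3 and Clock mainly by class, at 66.1%, 68.3% and 70.5% between classes.

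**Figure D3:**
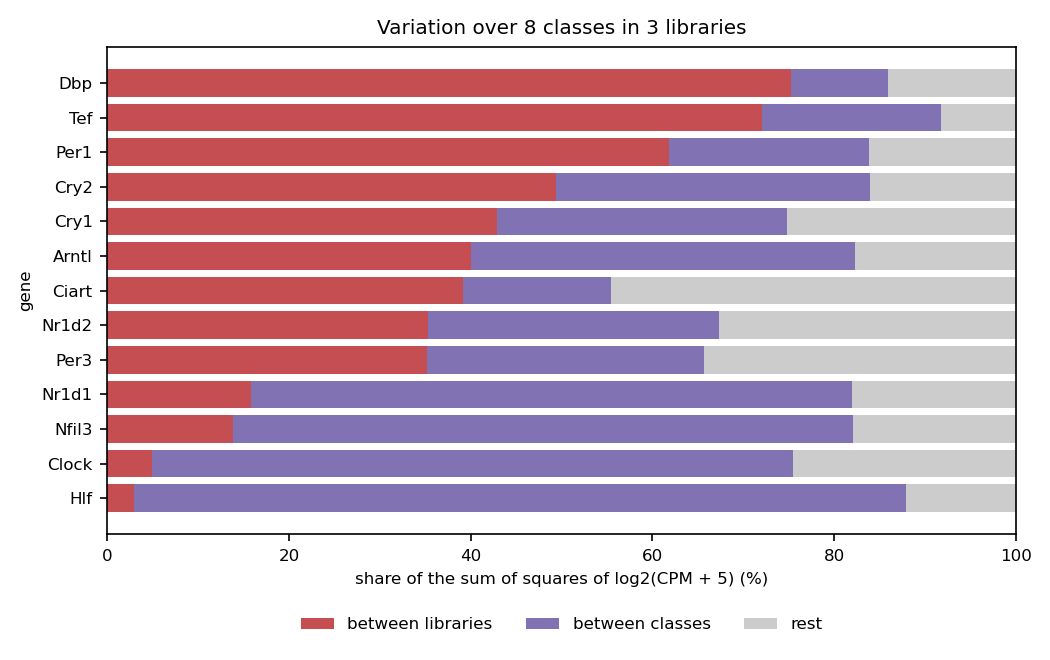
Share of the sum of squares of log2(CPM + 5) that lies between the 3 libraries, between the 8 classes and in the rest (horizontal axis, percent) for 13 clock genes (vertical axis). Dbp, Tef and Per1 vary mainly between libraries, at 75.2%, 72.1% and 61.8%, and Hlf, Clock and Nfil3 mainly between classes.

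Other genes of the core loop were read from a list of 10. Cry1, a repressor that partners the PER proteins, was lower at 12 months than at P38 in 8 of 8 classes, at 6.90 against 38.2 CPM in IFE basal cells. Cry2, its paralog, was higher in 8 of 8 classes, at 15.3 against 3.17 CPM. Ciart, which encodes a repressor of the ARNTL and CLOCK pair, was also higher in 8 of 8 classes but held at most 17 UMIs in any class at 12 months. The median log2 ratio of the list of other core clock genes was 0.65 for 12 months over P38, against 0.18 over all tested genes. In a separate list of clock protein modifiers, with a median of -0.0038, Csnk1d, which encodes a kinase that acts on PER proteins, was lower in 8 of 8 classes, at 43.9 against 106 CPM in IFE basal cells.

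Genes of stress and dissociation moved between the same libraries. Of 6 heat shock genes, 5 were lower at 12 months than at P38 in 8 of 8 classes, with a list median log2 ratio of -1.13, and Hspa1a stood at 3492 CPM at P38, 1263 CPM at 6 months and 229 CPM at 12 months in HF-SCs. Fos stood at 6441 CPM at 12 months in IFE basal cells, against 1643 CPM at P38. Genes that glucocorticoids induce did not share 1 direction. Tsc22d3 was higher at 12 months than at P38 in 8 of 8 classes, Fkbp5, Zbtb16 and Dusp1 in 5 and Klf9 in 4. Sgk1 was lower in 6 and Per1 in 8. The list of 7, which includes the clock member Per1, had a median log2 ratio of 0.39. The part of handling, stress or glucocorticoids in the levels of Per1, Nfil3 and Dbp was not tested.

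Whether the follicle departs from the epidermis within a library was read from an index, the log2 ratio of summed UMIs of Per1, Per2, Per3, Nr1d1, Nr1d2, Dbp and Tef over summed UMIs of Arntl, Clock and Nfil3. At P38 the index was below 0 in all 8 classes, from -2.73 in HG to -0.40 in IFE suprabasal cells, with a mean of -1.22 ± 0.75 (SD over classes, n = 8). At 12 months it was above 0 in all 8 classes, from 0.10 in Niche to 1.33 in HF-SCs, with a mean of 0.55 ± 0.42. The 12-month intervals of Niche (-0.55 to 0.75), HG (-0.45 to 0.76) and Proliferating cells (-0.05 to 0.41) included 0. At 6 months the index was spread on both sides of 0, with a mean of -0.11 ± 0.84. The P38 and 12-month ranges of the class values did not overlap, and the 6-month range overlapped both. With counting error, the 12-month intervals of Niche and HG cells overlapped the P38 interval of IFE suprabasal cells (-0.65 to -0.15).

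**Figure D4:**
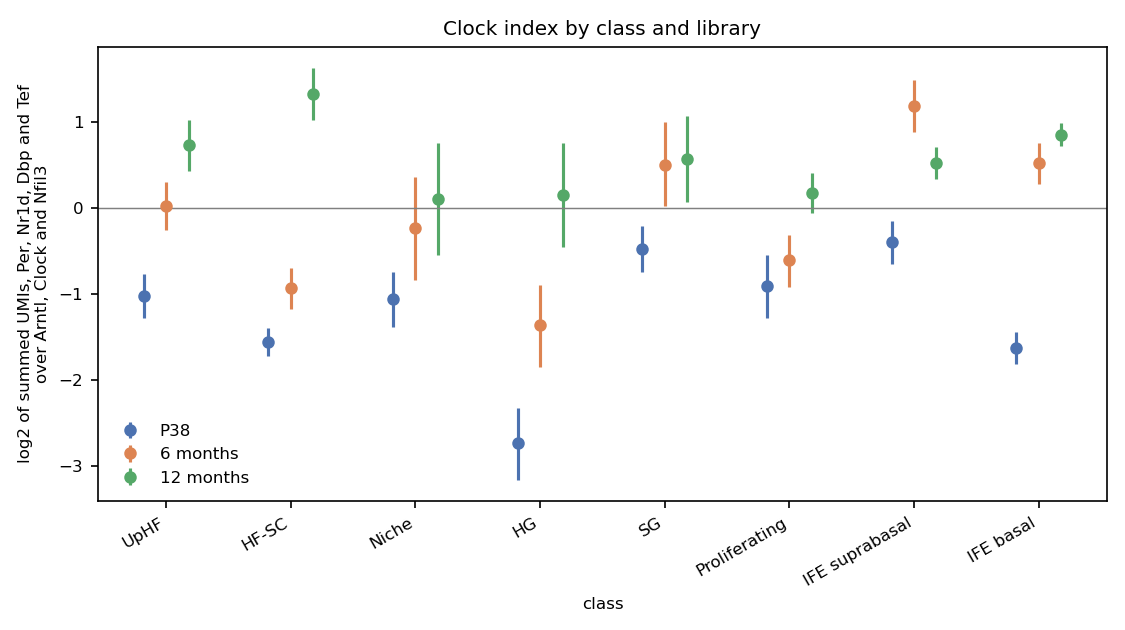
Clock index (vertical axis, log2 ratio of summed UMIs) in 8 classes (horizontal axis) of the P38, 6-month and 12-month libraries; points are 1 library each, bars are exact 95% intervals from the counts. All P38 points lie below 0 and all 12-month points above 0, but the 12-month intervals of Niche, HG and Proliferating cells include 0. At 6 months HF-SC, HG and Proliferating cells lie at -0.93, -1.36 and -0.61 and the 2 IFE classes at 0.52 and 1.18.

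At 6 months HF-SC and HG cells lay on the other side of 0 from both IFE classes. HF-SCs had an index of -0.93 (-1.18 to -0.69) and HG cells -1.36 (-1.85 to -0.90) there, against 0.52 (0.28 to 0.76) in IFE basal and 1.18 (0.88 to 1.49) in IFE suprabasal cells. UpHF cells lay between, at 0.02 (-0.26 to 0.30). The mean of the follicle classes minus that of the 2 IFE classes was -0.58 at P38, -1.48 at 6 months and -0.11 at 12 months. Over the 3 libraries it averaged -0.72 ± 0.70 (SD, n = 3), with the follicle lower in 3 of 3 (in 2 of 3 with clusters named by the markers or with a gate margin of 0.5, which gave 0.37 and 0.33 at 12 months), and the two-sided exact sign-flip permutation test gave p = 0.25, the smallest value that 3 libraries allow. With Dbp over Arntl alone as the index and 0.5 counts added, the differences were 0.53, -0.41 and 1.43 at P38, 6 months and 12 months. Their mean was 0.52 in place of -0.72, so the direction of the mean turned with the genes used. The difference was largest in size at 12 months in place of 6 months. Few UMIs carry this index, and its differences have no interval. Niche and HG cells held no Dbp UMI at P38 and 1 and 2 at 6 months, and they held 4 and 3 Arntl UMIs at 12 months. At 12 months the index of HF-SCs was above that of IFE basal cells, at 1.33 (1.03 to 1.63), against 0.85 (0.72 to 0.99) in IFE basal cells. Nfil3 gave 310 of the 418 UMIs on the lower side of the index in 6-month HF-SCs, and Nr1d1 gave 203 of the 357 on the upper side in 6-month IFE basal cells.

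Classes were compared by edgeR's quasi-likelihood test on the 24 sums of 8 classes in 3 libraries, with the library as a block, and 9 of the 10 members had enough counts (Per2 had not). Adjusted p-values are Benjamini-Hochberg over 10941 genes within a contrast. HG cells had the lowest Nr1d1 of all 8 classes, at 4.02, 4.43 and 7.11 CPM, against 18.5, 124 and 69.8 CPM in IFE basal cells in the order P38, 6 months and 12 months. Its edgeR log2 ratio over IFE basal was -3.76 ± 0.67 (SE, adjusted p = 0.00063), lower in 3 of 3 libraries, and the call held in the 12 alternatives that gave a value (adjusted p up to 0.024). Nfil3 was higher in HG at 1.87 ± 0.41 (adjusted p = 0.0032) and in HF-SCs at 1.29 ± 0.40 (adjusted p = 0.026), each in 3 of 3 libraries. HG cells also fell in Arntl by 1.11 ± 0.30 (adjusted p = 0.014). In all, 3 of 9 members were called in HG, against 15.9% of all genes, and 1 of 9 in HF-SCs, against 18.2%. The HF-SC call was lost without the P38 library (adjusted p = 0.12) or the 6-month library (adjusted p = 0.23), and the HG call of Nfil3 without P38 (adjusted p = 0.16), as was that of Arntl (0.14), which was also lost without 12 months (0.069).

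The remaining classes differed in other members. SG cells held little Arntl, at 11.2, 22.1 and 8.11 CPM in the 3 libraries, against 71.4, 51.1 and 29.7 CPM in IFE basal cells, with an edgeR log2 ratio of -2.10 ± 0.32 (adjusted p = 4.8e-05) that was lower in 3 of 3 and was called in all 14 alternatives (adjusted p up to 0.025). This was the only member called in SG (1 of 9), where 28.5% of all genes were called. UpHF cells fell in Nr1d1 by 1.39 ± 0.43 (adjusted p = 0.021) and rose in Per1 by 0.86 ± 0.30 (adjusted p = 0.037), 2 of 9 members against 26.9% of all genes. Without the 6-month library both lost the call, at adjusted p = 0.28 for Nr1d1 and 0.26 for Per1. For Per1 the call also went without P38 (0.29) and with library size in place of TMM (0.085), and for Nr1d1 without 12 months (0.057).

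Proliferating cells, which hold Mki67 and Top2a, were called lower in 4 of 9 members, the most of any contrast, against 8.47% of all genes lower and 19.6% called in either direction. This class was gated on cell cycle genes alone. Its Krt14 level was 9235, 2561 and 6854 CPM at P38, 6 months and 12 months, against 12752, 11827 and 11567 CPM in IFE basal cells. Whether its mix of lineages differed between libraries, and the part of that in these calls, was not tested. The edgeR log2 ratios over IFE basal cells were -1.71 ± 0.55 for Dbp (adjusted p = 0.035), -1.38 ± 0.38 for Tef (0.014), -1.33 ± 0.44 for Nr1d1 (0.038) and -1.04 ± 0.25 for Arntl (0.0066). Tef stood at 2.26, 7.22 and 16.3 CPM in Proliferating cells, against 2.82, 23.1 and 36.0 CPM in IFE basal cells, so it was lower in 3 of 3 libraries. Arntl was also lower in 3 of 3. Nr1d1 and Dbp were lower in 2 of 3: at P38 Nr1d1 stood at 31.7 CPM in Proliferating cells, against 18.5 CPM in IFE basal cells, and Dbp at 0.755 CPM (1 UMI), against 0.529 CPM (3 UMIs). The count of 4 became 1 without the 6-month or the 12-month library, and DESeq2 called 2. Niche and IFE suprabasal cells had 0 of 9 members called by edgeR and 0 by DESeq2, with 2 and 3 members at an unadjusted p under 0.05; 14.4% and 15.8% of all genes were called in these contrasts.

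**Figure D5:**
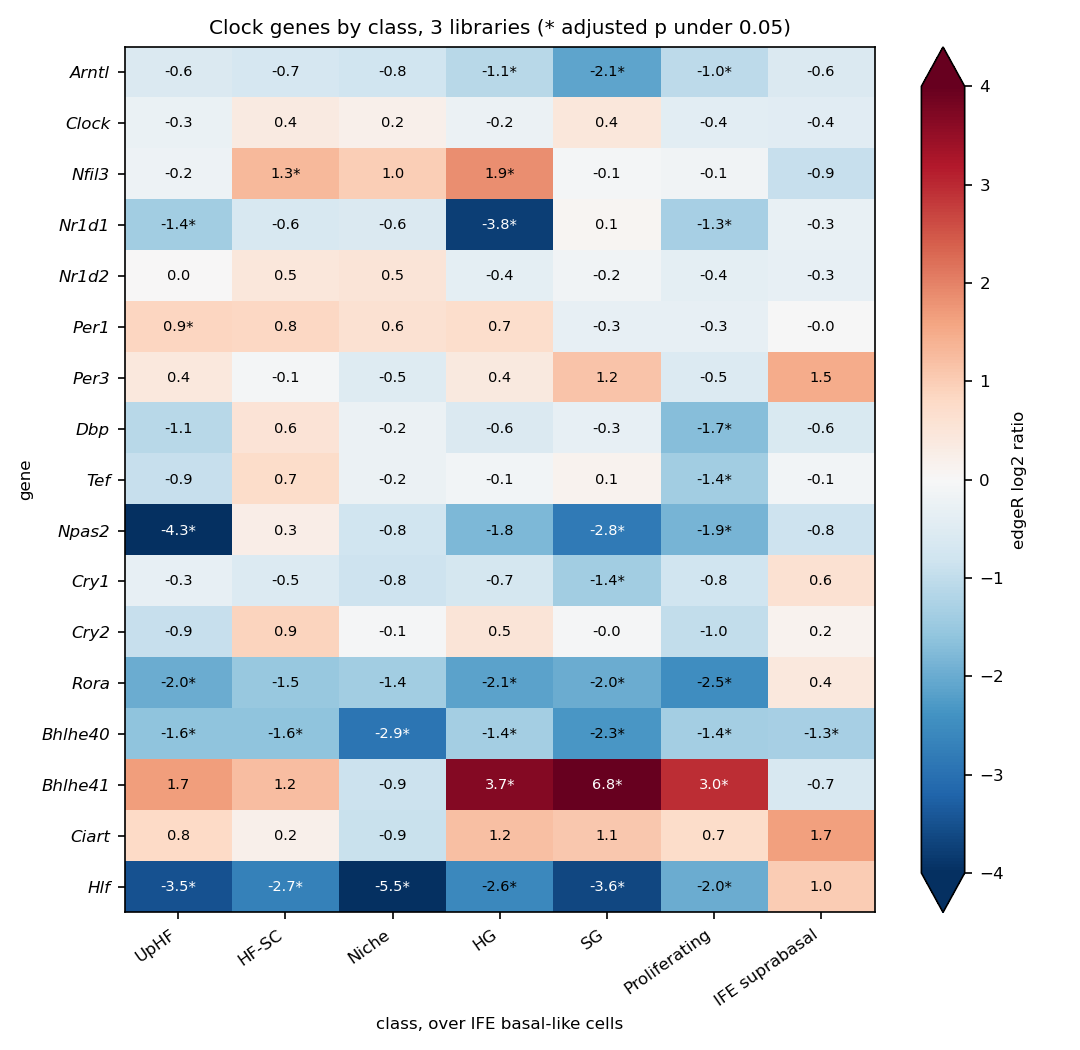
EdgeR log2 ratio over IFE basal cells of clock genes (rows) in 7 classes (columns), from sums over 3 libraries with the library as a block; stars mark an adjusted p under 0.05 and the colour scale ends at 4 in both directions. Nr1d1 is lowest in HG at -3.76, Arntl is below 0 in all 7 classes and called in HG, SG and Proliferating cells, and Bhlhe40 carries a star in every column.

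Of the other core clock genes, 9 of 10 were tested. Bhlhe40, which encodes a repressor that competes for the sites of the ARNTL and CLOCK pair, fell in all 7 contrasts, by 1.33 in IFE suprabasal to 2.93 in Niche cells on the log2 scale. Hlf, the third member of the Dbp family, fell in 6 contrasts and was highest in IFE suprabasal cells, at 45.4, 58.3 and 89.9 CPM. Bhlhe41, the paralog of Bhlhe40, rose in SG by 6.79 ± 0.81 (adjusted p = 2.9e-06), at 284, 162 and 280 CPM against 1.59, 0.609 and 3.08 CPM in IFE basal cells, and also in HG and Proliferating cells. Rora, an activator of Arntl, fell in HG, Proliferating, SG and UpHF cells, and Npas2, which can stand in for CLOCK, in Proliferating, SG and UpHF cells. Cry1 fell in SG. Called lower were 2, 3, 1, 2, 4, 5 and 4 of the 9 in HF-SC, HG, IFE suprabasal, Niche, Proliferating, SG and UpHF cells, against 8.34%, 7.91%, 7.81%, 7.14%, 8.47%, 15.3% and 12.5% of all genes.

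Among genes for modifiers of clock proteins, Btrc rose in HF-SC and HG, Csnk1e in UpHF and Timeless in Proliferating cells, while Timeless fell in IFE suprabasal cells. Of genes named as clock outputs in other tissues, Wee1, which encodes a kinase that delays mitosis, fell in 6 of the 7 contrasts and was not called in Proliferating cells. Nampt, for an enzyme of NAD synthesis, rose in SG by 1.78 ± 0.22 and fell in UpHF and IFE suprabasal cells. Coq10b fell in HF-SC, IFE suprabasal, Niche and SG cells, Cdkn1a in HG and SG, and Lonrf3 in HF-SC, while Dtx4 rose in SG and UpHF and Tspan4 in Proliferating cells. Genes of the glucocorticoid and stress lists moved with the same classes: Sgk1 rose in HF-SC, HG and Niche cells, Fkbp5 in SG and Proliferating cells and Tsc22d3 in SG, Tsc22d3 fell in HG, Niche and UpHF and Klf9 in Proliferating and UpHF cells. Of 10 immediate early genes, 8 fell in SG (Atf3, Dusp1, Egr1, Fos, Fosb, Ier2, Junb and Nr4a1), against 15.3% of all genes, Nr4a1 also fell in Niche and UpHF and Dusp1 in Proliferating cells, and Btg2 rose in HG. Of the heat shock genes, Dnajb1 and Hspb1 fell in SG and Proliferating cells. Their part in the levels of the clock genes was not tested.

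Fibroblasts and T cells, which lie outside the 8 classes, were present at 12 and 6 months. At 12 months fibroblasts held Dbp at 13.5 CPM, against 2.50 CPM (2 UMIs) at 6 months, and T cells at 24.4 CPM (5 UMIs), against 4.01 CPM (1 UMI). Fibroblasts and dermal papilla cells had high Nr1d1 at 12 months, at 143 and 148 CPM, and T cells had 1 Nr1d1 UMI. Migratory Niche cells, present at P38 and 6 months, held little Nr1d1, at 7.55 CPM at 6 months and 7.48 CPM at P38, and much Nfil3, at 167 CPM at 6 months and 294 CPM at P38. T cells held the most Per1, at 146 CPM at 12 months and 152 CPM at 6 months. Low counts limit these values, and they have no replicate.

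The members lie on 8 chromosomes (GRCm38, GENCODE vM21), with Arntl on chromosome 7 at 113207465 to 113314126 and Dbp on chromosome 7 at 45705088 to 45710203. Nr1d1 (chromosome 11, 98767932 to 98775333) overlaps Thra and Dbp overlaps Sphk2, in each case on the other strand, and Per3 overlaps Camta1 on its own strand. Whether the counting used strand is not given in the sources used here, so reads of these 3 genes and of their neighbours may not be fully separated. RefSeq promoter windows of GRCm38.p6, which run from 250 bases before to 50 after a start, were available for 9 of the 10 members in 14 windows, with none for Per2. They were searched on both strands for the E-box CACGTG, the D-box TTANNTAA and the ROR response element. The E-box, the site of the ARNTL and CLOCK pair, occurred in 3 member windows (Per1 once, Tef in both of its windows), against 7.15% of all 32851 windows. The D-box, the site shared by DBP, TEF, HLF and NFIL3, occurred in windows of Per3 and Tef, against 6.0% of all windows, and the ROR response element in 1 window of Arntl, against 0.384%. A match is a description of the letters and not a bound site.

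The stretches around the matches of the genes that separated the libraries are shown 5ʹ to 3ʹ on the strand of the gene, with the motif in capitals. For Per1 the E-box starts 166 bases before 1 RefSeq start (chr11:69098771-69098800, plus strand) and for Tef 127 bases before 1 start (chr15:81802534-81802563, plus strand). Both of these starts, and both E-boxes, lie inside the GENCODE gene. For Per3 2 D-boxes start 205 and 158 bases before its start (chr4:151044805-151044881, minus strand). For Arntl the ROR element starts at base 27 after a start (chr7:113207527-113207556, plus strand).
Per1 E-box: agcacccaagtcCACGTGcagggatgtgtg
Tef E-box: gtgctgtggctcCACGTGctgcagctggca
Per3 D-boxes: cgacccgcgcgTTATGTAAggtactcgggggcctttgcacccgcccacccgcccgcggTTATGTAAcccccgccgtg
Arntl ROR element: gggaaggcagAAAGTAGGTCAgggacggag
Per1 and Tef share the E-box letters but were ordered differently over the libraries, with Per1 highest at 6 months and Tef highest at 12 months.

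Genes outside the lists whose pattern was most like that of Dbp were found by Pearson's r of log2(CPM + 5) over the 37 library and class groups, among 5784 genes with a mean of at least 20 CPM. The groups share libraries and depth, so r is given as a description. The first 10 were 2210016L21Rik (r = 0.73), Cirbp (0.73), Gm26802 (0.71), Grcc10 (0.67), Gm10260 (0.67), Kat6b (0.66), Pink1 (0.65), Slc50a1 (0.65), Birc6 (0.64) and Fam71a (0.63). Cirbp, which encodes a cold-inducible RNA-binding protein, stood at 105, 170 and 381 CPM in HF-SCs and at 54.8, 88.8 and 218 CPM in IFE basal cells in the order P38, 6 months and 12 months. Among members, Tef was most like Dbp (r = 0.82), then Nr1d2 (0.63), Per3 (0.56) and Nr1d1 (0.47), and Arntl had the lowest value (-0.33).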

How the data were processed

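Transcripts were measured with 10X Chromium 3ʹ version 3 chemistry. Per the file headers and values, each deposited table gives unnormalized UMI counts by gene for every barcode, which the authors made with Cell Ranger on mm10 (6.1.2 in the submitters' notes and the header of the P38 counts, 6.0.0 in the headers of 6 and 12 months; the methods name another version). The published cell filter was applied again, and it kept many more cells at 6 months than the methods state and slightly more at 12 months. The 10 members and all lists were chosen with earlier results of these data known.

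A cell joined a class when the mean standardized log level of its markers (UMIs scaled to 10000 per cell) was at least 0.5, at least 0.25 above that of the next class, and at least 3 markers held a UMI; these thresholds were set after seeing the data, and 418, 329 and 388 cells of P38, 6 months and 12 months lay within 0.1 of one. Of 130 markers 129 were in the tables. Classes needed 20 cells. Doublets were not removed; an alternative left out the 40, 133 and 141 cells with the highest Scrublet scores, recomputed with exact neighbours. UMIs were summed per class and library and carry exact 95% Poisson or conditional intervals, which cover counting error only. Named were the 10 members, every list gene called in a contrast (some are not reported here, nor are counts of higher calls that include them), and the 10 genes most like Dbp. Sums were tested with edgeR 4.0.16 (TMM, filterByExpr, R 4.3.3), after a test on simulated data, with DESeq2 1.42.0 as an alternative. The block is the library, since the classes of 1 library come from the same sample. The block takes out the level that the classes of a library share. The p-values therefore rest on how far the differences between classes vary over the 3 libraries, pooled over all classes in the fit, and not on the spread between libraries. Python 3.11.15, numpy 2.4.6, scipy 1.17.1 and pandas 2.3.3 did the rest.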

Additional observations from a re-analysis of the deposited data

Results flagged for a closer look

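For 2 members a class difference had counting intervals on opposite sides of 0 in different libraries; the differences between libraries were not tested. The log2 ratio of Nr1d1 in Proliferating over IFE basal cells was 0.78 at P38, with an interval of 0.22 to 1.31. At 6 months it was -2.35 (interval -2.89 to -1.84), and the 12-month ratio was -1.41 (interval -1.74 to -1.09). In IFE suprabasal over IFE basal cells Nr1d1 had log2 ratios of 0.46 at P38, -0.66 at 6 months and -0.67 at 12 months. In SG over IFE basal cells it had -0.86 at 6 months and 1.69 at P38, where SG cells held 37 UMIs (6 months) and 122 UMIs (P38) of the gene. Nfil3 in SG over IFE basal cells had a log2 ratio of -1.20 at 6 months and 0.34 at P38. The IFE basal level of Nr1d1 moved between these libraries by more than that of the other classes (124 CPM at 6 months and 18.5 CPM at P38), and the median SG depth per cell was 651.5 UMIs at 6 months, against 20863 at P38.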

How the results depend on the processing

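Direction and call held in most alternatives, and counts of members moved or called did not change when barcodes shared between libraries were left out, an alternative chosen after seeing the data, as was a gate margin of 0.5. Keeping cells under 10% mitochondrial UMIs gave 3 members, in place of 5, moving 1 way in every class between 12 months and P38. Members called in HF-SC over IFE basal numbered 1, and 2 with clusters named by the markers, 3 with the gate margin of 0.5, 2 with library size only and 2 under 10% mitochondrial UMIs. Proliferating cells had 4, and 2 with DESeq2 and 2 with library size only; IFE suprabasal cells had 0, and 1 with no filter on low counts. Without the replicate block, HF-SC, Proliferating and UpHF had 0 members called, HG 2 and SG 1. Leaving out each library in turn gave 0 to 2 in HF-SC, 1 to 3 in HG, 0 to 1 in IFE suprabasal, 0 in Niche, 1 to 3 in Proliferating, 1 in SG and 0 to 1 in UpHF cells, and -1.03 to -0.35 for the mean follicle minus epidermis index. The mean index at P38, 6 and 12 months was -1.01, 0.12 and 0.78 with clusters named by the markers and -5.33, -2.67 and 0.018 for Dbp over Arntl alone. It was 0.15 at 6 months with the gate margin of 0.5 and 0.77 at 12 months as a mean over cells. Follicle minus epidermis was -0.33 at P38 and 0.37 at 12 months with clusters, 0.33 at 12 months with the gate margin of 0.5, and -1.05 at 6 months as a mean over cells. For Dbp over Arntl alone it was 0.53, -0.41 and 1.43 at P38, 6 and 12 months, and 0.52 on average, opposite in sign to the fuller index at P38, at 12 months and on average. The cause of these changes was not tested. Library size in place of TMM moved the median log2 ratio of all genes to between -0.15 in UpHF and 0.27 in Proliferating cells. Niche had too few cells for a contrast with clusters, with the gate margin of 0.5 or with at least 3000 UMIs per cell, and HG with the first 2 of these. Low counts limit Per2 in every library, and Dbp at P38.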

Other observations

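Barcodes that the cell filter removed were not part of any comparison. They held 5862627 UMIs at P38, 24023319 at 6 months and 9976692 at 12 months. Dbp stood at 1.19, 5.79 and 9.22 CPM in them in that order, Tef at 5.63, 14.3 and 40.6 CPM and Arntl at 42.0, 20.3 and 34.2 CPM. Dbp and Tef thus gave the same order of libraries as in the kept cells, while Arntl was lowest at 6 months among removed barcodes and lowest at 12 months among kept cells.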
